A study of Mus musculus with 2 samples.

Results

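The 7SK ribonucleoprotein and its client kinase P-TEFb were followed through 9 genes: the 7SK RNA itself (Rn7sk), its protein partners Larp7, Mepce, Hexim1 and Hexim2, the P-TEFb subunits Cdk9, Ccnt1 and Ccnt2, and Aff4, a scaffold that takes up active P-TEFb. They were taken by symbol, and all 9 had a row in both gene tables, out of 42462 genes that could be named. The material was total RNA of primary erythroblasts, the nucleated red cell precursors, from adult male C57BL/6J mice of 5 to 6 weeks with no treatment or allele given. The 2 libraries, labelled as biological replicates 1 and 2, were each prepared from 1 ng of RNA with spike-ins. They are different biosamples listed under the same donor, and whether different animals were used is not stated. With 1 group and n = 2 there is no contrast to test, so no p-value is given and every SD covers the spread of these 2 libraries, which may be partly technical.

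The libraries held 80806663 and 117032607 expected counts, of which nuclear protein-coding genes took 5.44% and 5.82%. TPM, the deposited level per transcript length, is a share of the sum over every row, and mitochondrial rRNA alone took 78.3% and 78.5% of it and nuclear genes share the rest with the other rows. The label was checked against markers. All 12 erythroid markers reached 1 TPM in both libraries, led by the globin genes Hbb-bs at 6817 and 7804 TPM and Hba-a2 at 7156 and 7447 TPM, with the erythroid regulator Klf1 lowest at 2.83 and 3.13 TPM. All 10 neutrophil markers did so as well, at a summed 2027 and 2335 TPM against 21114 and 22843 TPM for the erythroid list. S100a9 stood at 664 and 831 TPM, S100a8 at 615 and 740 TPM and Cebpe, the lowest, at 1.07 and 1.54 TPM. For scale, 14.5% of 21461 named nuclear protein-coding genes reached 1 TPM in both libraries. Of the other lists, 7 of 8 monocyte and macrophage, 1 of 6 T and NK cell, 1 of 5 megakaryocyte and 0 of 5 B cell markers reached 1 TPM in both. Their summed TPM ran from 19.4 to 21.3, 6.05 to 6.51, 4 to 5.66 and 0.59 to 0.89, and the T cell genes Cd3d and Cd8a were at 0 in both. The part of other cell types in the levels below was not tested, and in bulk RNA fewer cells of a type and less RNA per cell cannot be told apart.

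As background, RNA polymerase II pauses shortly after it starts a gene, and P-TEFb, the kinase CDK9 with a cyclin T, phosphorylates the polymerase and the pausing factors NELF and DSIF to release it. Much of the P-TEFb of a cell is held inactive by the 7SK RNP. There MEPCE caps the 5′ end of 7SK, LARP7 binds its 3′ U-rich end, and HEXIM proteins bound to the RNA block the kinase. 7SK is a short RNA polymerase III transcript, whereas all its partners are translated from mRNA, so RNA levels of the 2 kinds are not levels of the assembled complex.

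Rn7sk lies on mm10 chr9:78175303-78175633, minus strand, as a single exon of 331 bases. Its first 100 bases are shown because this end carries the GAUC repeats, written GATC in the DNA letters of the annotation, that are known for HEXIM binding. The capitals mark every GATC.
Rn7sk, bases 1 to 100: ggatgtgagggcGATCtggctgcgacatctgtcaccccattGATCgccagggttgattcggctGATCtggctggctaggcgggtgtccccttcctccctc
GATC, which reads the same on both strands, occurs 3 times in Rn7sk, at bases 13, 42 and 64. Of 139316 annotated transcripts of at least 100 bases, 23.4% held it at least once in their first 100 bases and 450, or 0.32%, held it 3 times or more. A match of these letters is a description and does not show binding in these cells.

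The genome holds many copies of 7SK, and reads that fit a copy as well could be shared out between rows. The 3′ end of Rn7sk is shown beside that of 2 copies. Gm24447 (chr15:93234363-93234700, plus strand, 338 bases) has the same first 241 bases as Rn7sk, 72.8% of its length, and differs after that. It was singled out after its values were seen. The capitals mark the last 20 shared bases.
Rn7sk, bases 222 to 331: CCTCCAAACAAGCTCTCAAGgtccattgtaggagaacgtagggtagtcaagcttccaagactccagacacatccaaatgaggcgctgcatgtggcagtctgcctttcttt
Gm24447, bases 222 to 338: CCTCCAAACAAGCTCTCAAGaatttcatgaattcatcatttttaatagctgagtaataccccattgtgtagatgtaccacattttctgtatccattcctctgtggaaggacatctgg
The last 90 bases of Rn7sk therefore tell these genes apart. Gm23037 (chr17:46403875-46404198, plus strand, 324 bases) aligns to all of Rn7sk with 89.2% identity. In the next pair the capitals mark the terminal T run, the DNA form of the U-rich end that LARP7 is known to bind.
Rn7sk, bases 302 to 331: ggcgctgcatgtggcagtctgcctttcTTT
Gm23037, bases 295 to 324: ggcgctgcatgtggcagtctgcctttcTTT
Nearly all 7SK reads were assigned to Rn7sk. Gm23037 and the other 4 genes that align over at least 80% of Rn7sk (Gm22477, Gm24383, Gm24441 and Gm25782) held 0 counts in both libraries. Those 4 are only 68.1% to 75% identical to Rn7sk where they align, so their zeros say little about shared reads. Gm24447 held 3.18 and 3.02 counts beside 27441 and 30323 for Rn7sk. The posterior SD that the authors' tables give for this sharing was 1.94 and 1.97 counts for Rn7sk. Allowing matches over 50% of the length gave 166 genes, 152 of them at 0 in both libraries, which held 1.11% and 1.56% of the counts of Rn7sk and these genes together. Most of those counts came from 1 protein-coding gene, Zfp101, with 238 and 435 counts, and the matches annotated as misc_RNA held 0.212% and 0.140%. Of the 166 genes, 11 were at least 90% identical to Rn7sk over the aligned part, and these held 3.18 and 5.57 counts.

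Rn7sk was the only one of the 9 genes at high abundance. It stood at 1939 TPM in replicate 1 and 1583 TPM in replicate 2 (1761 ± 252, SD, n = 2), rank 23 of all named genes by mean TPM. Replicate 1 was the higher library. The 3 genes next above it were mt-Nd1, a mitochondrial complex I gene, at 2012 and 2202 TPM, and the pair Rn7s1 and Rn7s2, the RNA of the signal recognition particle, at 1844 and 1775 TPM each. Next below came mt-Nd6 at 1594 and 1598 TPM, mt-Nd2 at 1103 and 1247 TPM and Rpph1, the RNA of RNase P, at 842 and 781 TPM. The Rn7sk range spans those of mt-Nd6, Rn7s1 and Rn7s2, so as single rows these neighbours could not be ordered beyond their spread. Rn7s1 and Rn7s2 share reads and have near-identical values, and their summed TPM was above Rn7sk in both libraries. When TPM was rescaled to the total of the nuclear protein-coding genes and the 9 genes, Rn7sk came to 39808 and 30107.

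**Figure D1:**
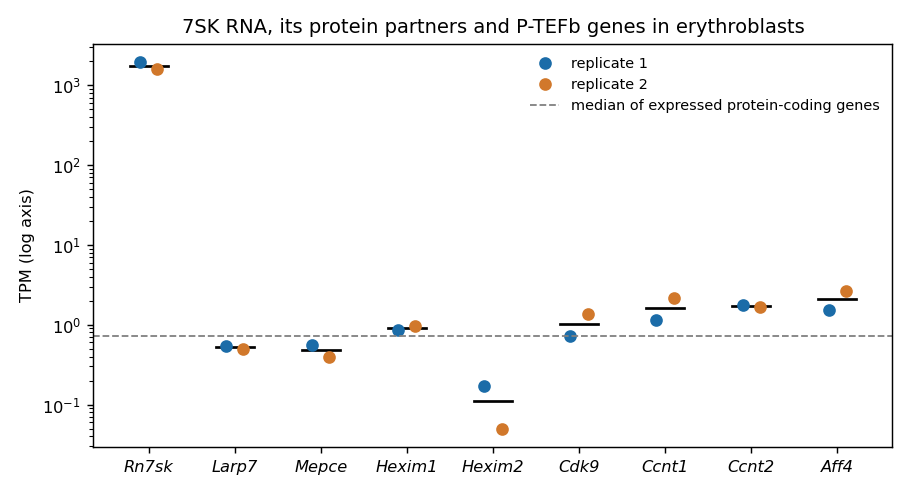
TPM on a log axis of the 7SK RNA gene, its protein partners, the P-TEFb genes and Aff4. Points are the 2 libraries, black bars their mean, and the dashed line is the median of 9196 nuclear protein-coding genes with at least 10 counts in both libraries (0.715 TPM). Rn7sk sits at 1939 and 1583 TPM and all other genes at 2.61 TPM or lower.

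The 8 protein-coding genes stood between 0.05 and 2.61 TPM. Ccnt1, Ccnt2 and Aff4, 3 of the 8, reached 1 TPM in both libraries, and 14.5% of 21461 named nuclear protein-coding genes did so. At least 10 expected counts in both libraries were held by 7 of the 8, all but Hexim2, against 42.8% of the same genes. Their median of mean TPM was 0.973, beside 0.715 over the 9196 genes with at least 10 counts in both. These are gene-level values over transcripts of every type. On protein-coding transcripts alone, Ccnt1 (0.57 and 0.75 TPM), Ccnt2 (0.80 and 0.82) and Aff4 (0.72 and 0.88) were below 1 TPM in both libraries. The share over all genes was not measured on that scale.

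The 2 constitutive proteins of the 7SK core had low and similar mRNA levels. Larp7 (chr3:127536714-127553349, minus strand) encodes the La-related protein that stabilises 7SK by its 3′ end. It was measured at 0.54 and 0.50 TPM, from 68 and 91 counts (0.52 ± 0.028 TPM, SD, n = 2). Mepce (chr5:137781906-137787655, minus strand), the gene of the capping methyltransferase, was measured at 0.56 and 0.40 TPM, from 78 and 127 counts (0.48 ± 0.11 TPM, SD, n = 2). Larp7 was the lower of the pair in replicate 1 and the higher in replicate 2. The log2 ratio of Larp7 to Mepce was 0.13 ± 0.26 (SD, n = 2), which is within the spread of the libraries. On protein-coding transcripts alone it was 0.49 ± 0.24, just past 2 SD, with Larp7 the higher in both.

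The 2 HEXIM paralogs differed. Hexim1 (chr11:103116231-103119725, plus strand), a gene of 1 exon, stood at 0.85 and 0.97 TPM, from 205 and 345 counts (0.91 ± 0.085 TPM, SD, n = 2). Hexim2 (chr11:103132429-103139876, plus strand) lies next to it on the same chromosome and stood at 0.17 and 0.05 TPM, from 20 and 9 counts. Both libraries had more Hexim1 than Hexim2, by 5.00-fold and 19.4-fold in TPM, a log2 ratio of 3.30 ± 1.38 (SD, n = 2). A mean ratio past 2 SD was called larger than the spread, and this one was. The size of this ratio rests on the few Hexim2 counts: it was 2.80-fold and 6.93-fold in posterior mean TPM (log2 2.14 ± 0.92), and 3.52-fold and 7.13-fold with 0.1 added to both TPM values (log2 2.32 ± 0.72). Summed, the paralogs gave 1.02 TPM in each library.

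P-TEFb was represented by its kinase and 2 cyclins. Cdk9 (chr2:32705784-32713076, minus strand), the kinase gene, stood at 0.72 and 1.35 TPM, from 135 and 202 counts (1.04 ± 0.45 TPM, SD, n = 2). Ccnt1 (chr15:98538689-98570923, minus strand), encoding cyclin T1, stood at 1.14 and 2.14 TPM, from 325 and 718 counts (1.64 ± 0.71 TPM, SD, n = 2). Both were higher in replicate 2. Ccnt2 (chr1:127774164-127808061, plus strand), encoding cyclin T2, stood at 1.76 and 1.65 TPM, from 611 and 938 counts (1.71 ± 0.078 TPM, SD, n = 2). The cyclins could not be ordered: Ccnt1 was 0.648 times Ccnt2 in replicate 1 and 1.3 times in replicate 2, a log2 ratio of -0.13 ± 0.71 (SD, n = 2). Their sum exceeded Cdk9 in both libraries, 4.03-fold and 2.81-fold, a log2 ratio of 1.75 ± 0.37 (SD, n = 2), past 2 SD. Hexim1 plus Hexim2 against Cdk9 changed sign between the libraries, at 1.42-fold and 0.756-fold.

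Aff4 (chr11:53350833-53421830, plus strand) encodes the scaffold of the super elongation complex, which carries active P-TEFb. It stood at 1.54 and 2.61 TPM, from 293 and 713 counts (2.08 ± 0.76 TPM, SD, n = 2), the highest gene-level mean among the 8 protein-coding genes. Its range overlaps those of Ccnt1 and Ccnt2. This rank does not hold on protein-coding transcripts alone, where Aff4 stood at 0.72 and 0.88 TPM, below Hexim1 at 0.85 and 0.97. The related scaffold gene Aff1 stood well above it, at 16.3 and 13.6 TPM, from 4527 and 6104 counts. Aff4 was 0.0946 and 0.192 times Aff1 in TPM, a log2 ratio of -2.89 ± 0.72 (SD, n = 2), past 2 SD.

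Set against its partners, 7SK RNA was in excess in both libraries on every scale tried. Rn7sk was 914-fold and 824-fold the summed TPM of Larp7, Mepce, Hexim1 and Hexim2, a log2 ratio of 9.76 ± 0.11 (SD, n = 2). Against the summed TPM of Cdk9, Ccnt1 and Ccnt2 it was 536-fold and 308-fold, a log2 ratio of 8.67 ± 0.56 (SD, n = 2). Among single partners, Rn7sk exceeded Ccnt1 1701-fold and 740-fold in TPM and Ccnt2 1102-fold and 959-fold, so the smallest factor belonged to Ccnt2 in replicate 1 and to Ccnt1 in replicate 2. It exceeded Hexim2 11404-fold and 31657-fold. Against Aff4 the factors were 1259-fold and 606-fold.

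The size of the excess depends on how length is treated. In expected counts, which are not corrected for length, Rn7sk exceeded the sum of its 4 protein partners 74.0-fold and 53.0-fold and the P-TEFb sum 25.6-fold and 16.3-fold. Per annotated kilobase the factors were 575-fold and 476-fold for the protein partners and 329-fold and 177-fold for P-TEFb. TPM divides by an effective length, the number of positions a fragment can start from, which for Rn7sk was 197 and 181 of 331 bases. A short RNA loses a larger share of its length this way, which raises its TPM. These are ratios of RNA in total RNA libraries with a fragment range of 150 to 400 per the labels, and not of molecules of protein. The effective lengths imply a mean fragment of 136 bases in replicate 1, below that range, and 152 in replicate 2, near its lower end. The reason was not tested.

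**Figure D2:**
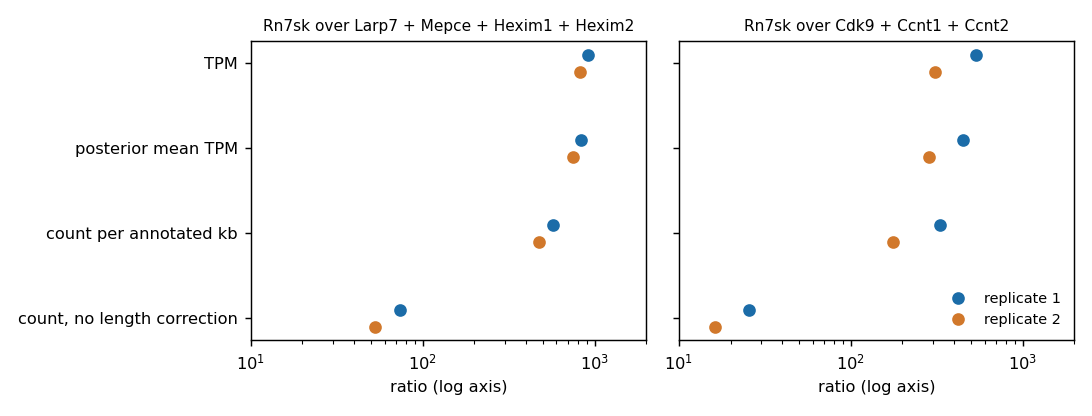
Ratio of Rn7sk to the summed level of its protein partners (left) and of the P-TEFb subunits (right) on 4 scales, log axis, with 1 point per library. The ratio is 914 and 824 (left) and 536 and 308 (right) in TPM, and 74.0 and 53.0 (left) and 25.6 and 16.3 (right) in uncorrected counts.

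The transcripts behind these gene levels were not the same kind for every gene. Rn7sk, Larp7 and Hexim1 have a single transcript in the tables, and all Hexim2 counts lay on protein-coding transcripts. By share of TPM the leading transcript was the same in both libraries for 6 of the 9 genes and changed for Cdk9, Ccnt1 and Aff4. Ranked by expected count, a measure added after the values were seen, it was the same for all 9. Shares among transcripts that overlap are estimates, and the aligned reads were not used here.

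Cdk9 stood apart from the other genes. Its protein-coding transcripts held 23.0% and 8.71% of its counts (31.1 and 17.6) and 41.8% and 8.29% of its TPM. Most of its counts lay on Cdk9-204, a retained-intron transcript of 3565 bases of which 2134 lie outside the protein-coding exons of the gene, with 104 and 160 counts and 0.42 and 0.44 TPM. In replicate 2 another retained-intron transcript, Cdk9-206 of 444 bases, had 24.8 counts and 0.80 TPM, 59.1% of the gene's TPM, and in replicate 1 it was listed at 0. The higher gene-level TPM of Cdk9 in replicate 2 therefore rested on a short transcript with few counts. Mir2861, a microRNA gene inside an exon of Cdk9 on the same strand, had 0 counts in both. In protein-coding transcripts Cdk9 stood at 0.30 and 0.11 TPM. On the minus strand Cdk9-204 also reaches past the 3′ end of the protein-coding transcripts, to base 32705784 against 32707438. How many of the 2134 bases lie there was not measured. In total RNA, reads of a retained intron, of RNA not yet spliced and of sequence past that end cannot be told apart in these tables.

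To place Cdk9, 3991 protein-coding genes with a mean of at least 20 counts and transcripts of both kinds were described the same way. Over 50% of the counts lay on retained-intron transcripts in both libraries for Cdk9, 1 of the 5 genes of the set that qualify (Mepce, Cdk9, Ccnt1, Ccnt2 and Aff4), and for 4.84% of all such genes. The mean share of Cdk9 was 84.1%, above that of 98.2% of these genes, whose median was 5.32%. Ccnt2 had 20.8% and 22.7%, Aff4 13.5% and 11.2%, Ccnt1 0.717% and 11.8% and Mepce 6.67% and 0%.

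On protein-coding transcripts alone, the relations within P-TEFb moved. Ccnt1 plus Ccnt2 exceeded Cdk9 4.57-fold and 14.3-fold in TPM, and Hexim1 plus Hexim2 exceeded it 3.43-fold and 9.27-fold, now in the same direction in both libraries. The mean log2 ratios were 3.01 ± 1.16 and 2.50 ± 1.01 (SD, n = 2), both past 2 SD. Their size rests on the few counts of protein-coding Cdk9 transcripts, 31.1 and 17.6. In posterior mean TPM these transcripts held 36.4% and 14.9% of the gene, beside 41.8% and 8.29% in TPM.

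Transcripts not annotated as protein-coding also held part of the RNA of the cyclins and Aff4. Ccnt1-203, a processed transcript of 683 bases, had 6.45% and 7.57% of the Ccnt1 counts and 46.5% and 44.9% of its TPM, while the protein-coding Ccnt1-208 of 7397 bases had 299 and 579 counts. Of the Ccnt1-203 bases, 0 lie outside the protein-coding exons of the gene. Its share is an estimate, and whether a splice junction of its own sets Ccnt1-203 apart was not checked. Ccnt1 also overlaps an antisense gene, 9330020H09Rik, over 695 exonic bases. That gene had 3.13 and 7.10 counts, and whether counting used the strand is not given in the sources used here. Ccnt2 had 62.5% and 59.9% of its counts and 45.7% and 49.7% of its TPM on protein-coding transcripts. Aff4-201, the long protein-coding transcript of 10099 bases, had 244 and 607 counts but 22.1% of the Aff4 TPM in each library. Protein-coding transcripts of Aff4 held 86.5% of counts in both libraries and 46.9% and 33.6% of TPM. Mepce had 93.3% and 100% of its counts on protein-coding transcripts, and the 5.2 counts of its retained-intron transcript Mepce-203 in replicate 1 made up 39.6% of its TPM there.

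**Figure D3:**
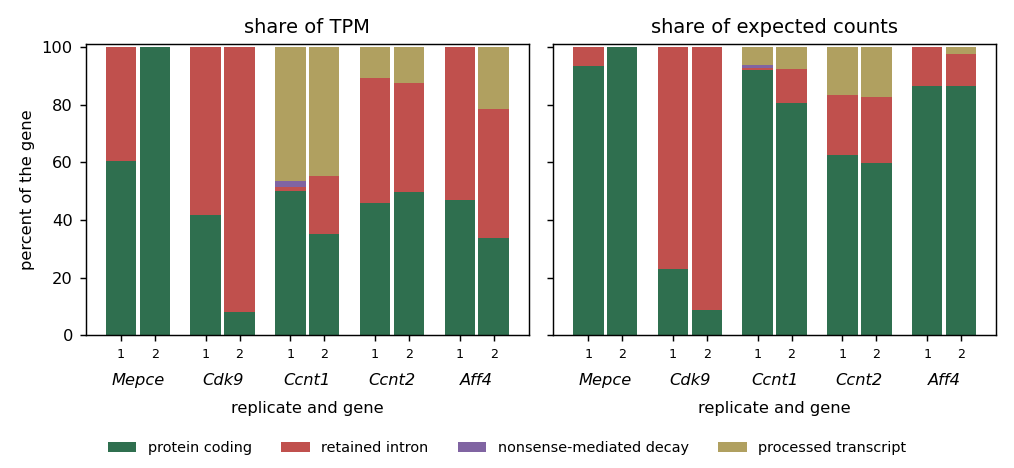
Percent of each gene's TPM (left) and of its expected counts (right) by annotated transcript type, with 1 bar per library, for the 5 genes that have a retained-intron transcript. Cdk9 has 23.0% and 8.71% of its counts on protein-coding transcripts, and the other 4 genes have 59.9% or more.

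The libraries were then compared with each other, as the spread behind every level above. Counts were scaled by TMM factors, and a ratio past 1.5-fold in either direction was used as a description. Of the 8 genes with a mean of at least 20 counts, Aff4 alone passed 1.5-fold, and 39.3% of the 9958 named genes at that depth did so. Aff4 was 1.55-fold higher in replicate 2 (log2 0.63, 95% counting interval 0.44 to 0.84). Aff4 was among genes of 300 to 1000 counts, of which 13.7% passed in either direction, and 20.9% of all 9958 genes were past 1.5-fold higher in replicate 2. Ccnt1 was 1.41-fold higher (log2 0.50, 0.31 to 0.69). For Larp7, Mepce, Hexim1, Cdk9 and Ccnt2 the counting interval included 0, with log2 ratios of -0.22, 0.06, 0.10, -0.06 and -0.03. At the depth of Larp7, 20 to 100 counts, 61.6% of genes passed 1.5-fold, and at that of Mepce, Hexim1 and Cdk9, 100 to 300 counts, 34.8% did. None of the 8 genes was past 1.5-fold lower in replicate 2, against 18.4% of all 9958. Hexim2 was below the depth and had a log2 ratio of -1.56.

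In deposited TPM, 3 of the 8 genes passed 1.5-fold, with 44.7% of all genes at that depth. These were Aff4, Ccnt1 and Cdk9, and Cdk9 was 1.88-fold higher in replicate 2 by TPM although its scaled counts differed by a log2 ratio of -0.06. Mepce had a log2 ratio of 0.06 in scaled counts and -0.49 in TPM. For both genes the transcript shares above differed between the libraries.

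Rn7sk was 1.42-fold lower in replicate 2 (log2 -0.50, 95% counting interval -0.53 to -0.48), a difference well beyond counting error at its depth. Of 287 genes that averaged 3000 counts or more, 0.697% passed 1.5-fold, and 4, Rn7sk included, were as low in replicate 2 as Rn7sk or lower. The others were Rmrp, mt-Nd4l and Gm42418. Other short RNAs were also lower in replicate 2. Rnu1a1, the U1 spliceosomal RNA, had a log2 ratio of -0.73, Rmrp -0.56, Rpph1 -0.33 and Rn7s1 and Rn7s2 -0.29 each. Over 39 small noncoding RNA genes the median log2 ratio was -0.56 and 33 were lower, beside a median of 0.02 over all 9958 genes. The 39 include Rn7sk and the RNAs just named, with gene copies of identical values counted once (a choice made after the values were seen). Counted the same way, genes under 200 bases had a median of -0.55 (n = 23) and genes of 200 to 350 bases, the class of Rn7sk, a median of -0.06 (n = 67). The mean fragment length implied by the effective lengths was 136 bases in replicate 1 and 152 in replicate 2. In TPM, which differs from scaled counts in both length treatment and scaling, the Rn7sk log2 ratio was -0.29. The TPM median was -0.19 over the 39 small noncoding RNA genes and 0.12 over the same 9958 genes. The part of fragment length in the Rn7sk difference was not tested.

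**Figure D4:**
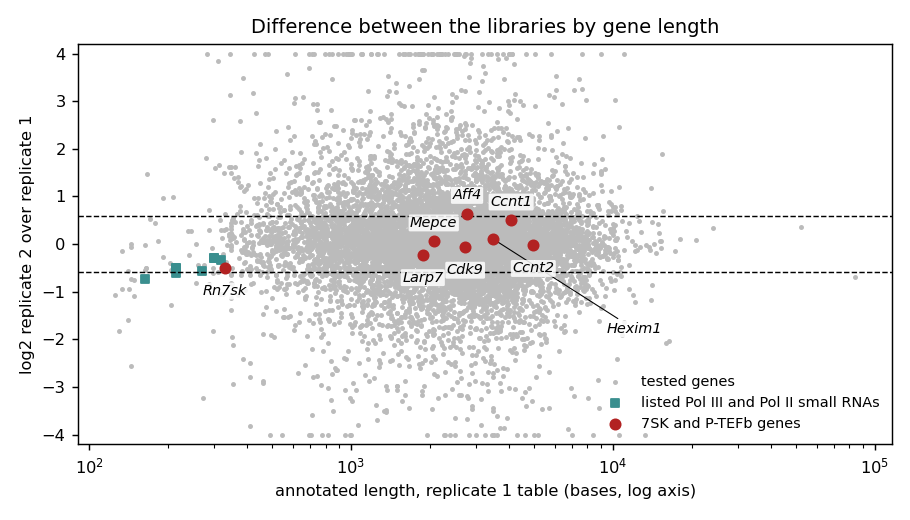
Log2 ratio of replicate 2 to replicate 1 in TMM-scaled counts against annotated length (log axis) for 9958 genes, with values beyond 4 drawn at 4. Red points are the 8 genes of the 7SK and P-TEFb set, squares the listed small RNAs, dashed lines 1.5-fold. Rn7sk lies at -0.50 among squares that are all below 0, and Aff4 lies above the upper line at 0.63.

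The other genes of the pathway were described by lists, counting those at 1 TPM or more in both libraries. Of 100 other protein-coding genes on these lists 42 did so, with a median of mean TPM of 0.928, and 14.5% of all nuclear protein-coding genes did so. Between the libraries, 93 of the 100 had a mean of at least 20 counts, and 12 of these were past 1.5-fold higher and 11 past 1.5-fold lower in replicate 2, beside the 20.9% and 18.4% of all genes at that depth. Among the other genes of the elongation complexes built around P-TEFb, 3 of 11 were detected (median 0.205 TPM). Aff1 led, followed by Mllt3, a chromatin reader of the complex, at 4.11 and 4.42 TPM. The elongation factor Ell2 stood at 2.73 and 3.91 TPM. The lowest were Ell3, with 0 and 1 counts, and Eaf2, with 0 in both.

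Genes that recruit P-TEFb or release it from 7SK were the best represented protein-coding list after the hnRNPs, with 10 of 14 detected (median 3.71 TPM). The splicing factor Srsf2, known to help release P-TEFb from 7SK at promoters, stood at 14.6 and 21.4 TPM and the phosphatase subunit Ppp1cb at 16.4 and 17.8 TPM. Trim33 stood at 0.46 and 0.66 TPM and the Mediator subunit Med26 at 0.25 and 0.22 TPM. All 5 hnRNP genes, whose proteins bind 7SK when HEXIM and P-TEFb leave it, were detected. Hnrnpk stood at 10.0 and 13.6 TPM, Hnrnpa2b1 at 8.38 and 8.94, Hnrnpa1 at 7.27 and 7.10, Syncrip at 2.88 and 2.91 and Hnrnpr at 3.11 and 1.84. Each was above Larp7, Mepce, Hexim1 and Hexim2 in both libraries.

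Among La-related genes and a second cap methylase, 4 of 7 were detected. Ssb, the La protein that binds new polymerase III transcripts, stood at 6.37 and 4.70 TPM and Larp1b at 1.67 and 2.55 TPM, both above Larp7. Larp6 was at 0 in both libraries and Bcdin3d, a relative of Mepce, had 0 and 1 counts. Of the pausing factors that P-TEFb phosphorylates, 2 of 6 were detected. The DSIF genes were Supt4a at 6.36 and 8.62 TPM and Supt5 at 0.64 and 0.52. The NELF genes were Nelfe at 1.10 and 1.56, Nelfa at 0.49 and 0.80, Nelfcd at 0.83 and 0.36 and Nelfb at 0.30 and 0.04. Nelfb rested on 54 and 10 counts and Nelfcd on 74 and 41, and both were past 1.5-fold lower in replicate 2; at 20 to 100 counts 61.6% of genes passed 1.5-fold in one direction or the other. The PAF complex and Supt6 had 2 of 7 detected, with Wdr61 at 1.92 and 2.99 TPM and Paf1 at 1.34 and 1.71 TPM highest, and Rtf1 at 0.41 and 0.70 TPM and Leo1 at 0.29 and 0.18 TPM lowest.

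Cdk9 was not the leading transcription kinase by RNA. Of the other kinases and their cyclins 4 of 8 were detected. Cdk12, which acts later on the elongating polymerase, stood at 9.91 and 9.43 TPM, above Cdk9 in both libraries, and its cyclin Ccnk at 1.82 and 1.92 TPM. Mnat1 stood at 0.40 TPM in both and Cdk7, the kinase of TFIIH, at 0.17 and 0.15 TPM. RNA polymerase II had 6 of 12 subunit genes detected in both libraries, with 10 at 1 TPM or more in replicate 2 and 6 in replicate 1. Polr2a, the largest subunit and a substrate of CDK9, stood at 2.79 and 2.94 TPM and Polr2j at 2.07 and 1.79 TPM, and Polr2h at 0.26 and 0.60 TPM and Polr2l at 0.15 and 0.44 TPM were lowest. Of short-lived mRNAs known for their dependence on P-TEFb, 3 of 7 were detected. Mcl1 stood at 5.33 and 4.25 TPM, Fos at 1.93 and 2.18, Egr1 at 0.43 and 0.34 and Junb at 0.29 and 0.35.

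The mRNAs of the machinery that makes 7SK stood below their product. For scale, 14.5% of nuclear protein-coding genes were detected. The median of mean TPM was 0.035 over all of these and 0.715 over those with at least 10 counts in both libraries. RNA polymerase III had 2 of 13 subunit genes detected (median 0.59 TPM), Polr3b at 1.98 and 2.45 TPM and Polr1d at 1.58 and 1.55 TPM. All 13 held at least 10 counts in both libraries, against 42.8% of nuclear protein-coding genes. Its catalytic subunit Polr3a and Polr3d were both at 0.11 and 0.07 TPM. The factors of the type 3 promoter, the kind that drives 7SK, had 1 of 10 detected in both libraries (median 0.598 TPM). This was Tbp at 2.13 and 2.73 TPM, while 4 reached 1 TPM in replicate 2 and 2 did in replicate 1. At least 10 counts in both libraries were held by 8 of these 10. Bdp1 stood at 1.44 and 0.64 TPM, Snapc1 at 0.11 and 0.21, and Brf2 had 0 and 24 counts. Among RNAs made by polymerase III, 4 of 8 were detected. Rn7sk was close to Rn7s1 and Rn7s2 as single rows, but these share reads with each other and their summed TPM was above Rn7sk. Rpph1 and Rmrp (585 and 475 TPM) were below Rn7sk in both libraries. Vaultrc5 had 6 and 0 counts, and Rny1, Rny3 and Rnu6 were listed at 0. Those 4 RNAs are 143 bases or shorter, near or below the mean fragment length, so 0 here does not show absence.

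Small nuclear and nucleolar RNAs made by polymerase II had 8 of 14 genes detected, all below Rn7sk. Rnu3b4 and Rnu3b2, copies of the U3 RNA with identical values, stood at 203 and 182 TPM each. Rnu1b6, Rnu7, Rnu3b1 and Rnu3b3 were at 0 in both libraries, and several of these genes have near-identical copies between which reads could be split. All the listed RNAs but Terc, of 423 bases, are shorter than Rn7sk. Rnu7 is 62 bases, Rnu11 134 and Rnu12 151, near or below the mean fragment length, so low values there do not show absence. No share of detected genes over all noncoding genes is given for this list or for the polymerase III RNAs.

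**Figure D5:**
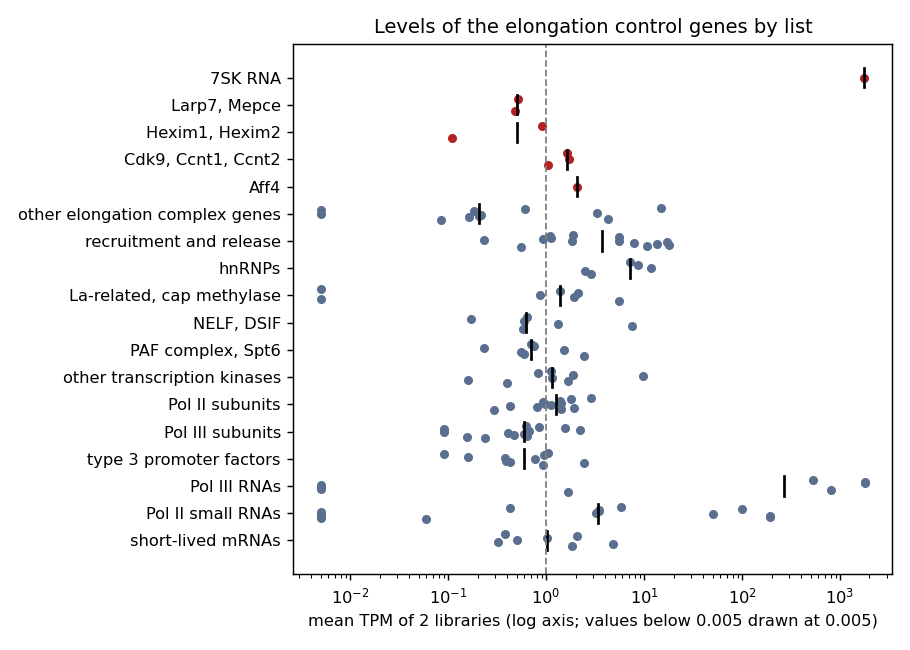
Mean TPM of the 2 libraries (log axis) for each gene of the 7SK and P-TEFb set (red) and of the other lists (blue), with values below 0.005 drawn at 0.005. Black ticks are list medians and the dashed line is 1 TPM. Rn7sk lies with the top Pol III RNAs, and Larp7, Mepce, Hexim1 and Hexim2 lie below 1 TPM.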

How the data were processed

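Each library came with a gene and a transcript table. Per the deposited read-me, both were quantified from a transcriptome alignment on mm10 with GENCODE release M4. The columns are those RSEM writes; aligner, quantifier, versions and strand setting were not given in the sources used here. As values, the authors deposited expected counts (estimated reads, not normalized), TPM and FPKM (scaled for effective length and for the total of all rows, rRNA and spike-ins included), the percent of a gene's TPM per transcript, and posterior means and SDs, treated here as score values.

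Symbols and coordinates came from GENCODE M21 (same build), matching 42462 of 43346 Ensembl rows; member transcript lengths were equal in both releases except Larp7-201. Spike-in and other rows stayed out of the comparisons. Levels are TPM, mean ± SD (n = 2). A log2 ratio was called beyond the spread where its mean exceeded 2 SD. Between libraries, counts were rounded and scaled by TMM (edgeR 4.0.16, R 4.3.3; factors 0.962 and 1.04 from 9957 genes), with a prior count of 2 and a minimum mean of 20 counts. Intervals are 95% and cover counting error only. 7SK copies were found with blastn 2.17.0 (task blastn) among M21 transcripts at 80% or more of Rn7sk aligned. Alternatives were other units, estimates, scalings (DESeq2 1.42.0 size factors among them), thresholds and leaving out a library.

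The members and lists were chosen with earlier results of these data known. Named beside the 9 genes were the 2 highest and 2 lowest of each other list by mean TPM (whole lists of 5 or fewer, of Pol III RNAs and of NELF and DSIF), the 2 highest and the lowest erythroid and neutrophil marker, and the 3 genes on either side of Rn7sk in rank; genes given for counts of 5 or fewer, Gm24447, the copies, the other markers at 0 and the deep genes lower in replicate 2 were named after their values were seen. With 2 libraries of 1 group no likeness of pattern between genes could be measured.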

Additional observations from a re-analysis of the deposited data

How the results depend on the processing

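Of 262 alternative values, 195 kept to within the spread, interval or 1.5-fold range set for them, 67 moved and 0 reversed a called direction. For levels and ratios the spread was the SD of the 2 libraries, and a value without 1 library always lies within it. Those values could therefore only count as kept, whatever their size. Rescaling TPM to protein-coding genes and the 9 genes put Rn7sk at 34958. The log2 ratio of Rn7sk to its protein partners was 5.97 in uncorrected counts, 9.03 per annotated kilobase, 9.62 in posterior mean TPM and 11.78 against the median partner, and that to P-TEFb was 4.35, 7.92 and 10.32 in uncorrected counts, per kilobase and against the median. On protein-coding transcripts the log2 ratios were 0.49 for Larp7 to Mepce, 2.50 for the Hexim sum to Cdk9 and 3.01 for the cyclin sum to Cdk9. The members past 1.5-fold between libraries numbered 1 with DESeq2 size factors, a prior count of 0.5, a minimum of 100 counts or TMM without an expression filter (added after the data were seen), 2 with library totals, 3 with deposited TPM and 2 with no minimum. Detected members numbered 7 at 0.5 TPM, 1 at 2 TPM and 8 at 10 counts, and other listed genes 29 at 2 TPM and 102 at 10 counts. Genes matching 7SK numbered 166 at 50% and 3 at 95% of the length, with 1.34% and 0% of the counts of Rn7sk and these genes. Most of the 1.34% was the protein-coding gene Zfp101, and matches annotated as misc_RNA held 0.212% and 0.140% in replicates 1 and 2. Leaving out a library gave a log2 ratio of Rn7sk to its protein partners of 9.69 to 9.84, and to P-TEFb of 8.27 to 9.06. No paired analysis was possible because the design holds 1 group. Causes were not tested beyond what each setting changes by its construction.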
